A study of Homo sapiens with 6 samples.

Results

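The LINC-named transcripts are long non-coding RNAs whose genes carry the symbol LINC and 5 digits, the form given to intergenic non-coding genes that have not been named for a function. They were chosen by that symbol from a deposited table of 1437 lncRNA transcripts, leaving out 9 LINC genes (14 transcripts), and came to 67 transcripts of 63 genes. RNA was sequenced from 2 human cell lines with 3 samples each: HBE (also spelled HEB in the labels), an untreated line of normal lung epithelium grown in RPMI-1640, and A549, an untreated lung adenocarcinoma line grown in DMEM, both with fetal bovine serum and antibiotics. The study asked which lncRNAs are abnormally expressed in non-small cell lung cancer. Each group is 1 line, the medium differs with the line, and the labels do not say that samples of a line were separate cultures, so line and medium cannot be told apart, and the p-values speak of the spread among these samples alone, which could be technical.

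An intergenic lncRNA is made by RNA polymerase II from its own promoter, and is usually capped, spliced and polyadenylated like an mRNA, but encodes no known protein. Many are expressed at low levels and in few cell types. Some act on nearby genes, some bind proteins or microRNAs, some are hosts from which a microRNA is cut, and for many no role is known. In lung cancer several LINC genes have been described as raised or lowered, mostly from comparisons of tumour and normal tissue.

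The recovered library sizes were 49374253 to 57673801 reads, so 1 count was worth 0.0173 to 0.0203 CPM (counts scaled by the recovered library size to a common total). The members summed to 45.0, 56.8 and 58.6 CPM in HBE replicates 1 to 3. In A549 replicates 1 to 3 they summed to 34.6, 30.3 and 21.7 CPM, so the lines did not overlap in this sum. This depended on the scaling: as a share of the table's counts, leaving out the structural RNA RPPH1, the lines overlapped. The members made up 0.739%, 2.19% and 2.72% of these counts in HBE replicates 1 to 3. The shares were 1.38%, 1.32% and 0.470% in A549 replicates 1 to 3. A member had at least 1 count in 40, 45 and 43 cases in HBE and in 39, 36 and 35 cases in A549. The labels could be checked only against lncRNA markers: the 3 MIR205HG transcripts, of the host of an epithelial microRNA, summed to 76.2 to 213 CPM in HBE samples and to 0 in A549. The 2 transcripts of SFTA1P, a lung epithelial lncRNA, summed to 2.40 to 6.64 CPM in HBE and to 0 in A549, although A549 is labelled a lung line. Of the mesenchymal markers 2 of 4 were in the table, with 3 transcripts, 2 higher and 1 lower in A549. These summed to 0.943 to 1.35 CPM in HBE and 0.243 to 1.05 CPM in A549. None of the 10 blood markers or the 1 endothelial marker was in the table. The part of the markers in the results was not tested.

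The start windows of 6 members on which the results turn are shown first, taken from those whose RefSeq start lies within 50 bases of the start of the counted transcript. They include the transcript with the largest bound in A549, the most abundant one there and transcripts seen in 1 line only. They run from 250 bases before to 50 after the start in RefSeq (GRCh38.p14), 5′ to 3′ on the gene's strand, and capitals mark motifs found by search on both strands: the AP-1 site TGANTCA, the cAMP response element TGACGTCA, the TATA box TATAAA, the GC box GGGCGG and CCAAT.
LINC02212-201 (chr5:10502679-10502978, minus strand): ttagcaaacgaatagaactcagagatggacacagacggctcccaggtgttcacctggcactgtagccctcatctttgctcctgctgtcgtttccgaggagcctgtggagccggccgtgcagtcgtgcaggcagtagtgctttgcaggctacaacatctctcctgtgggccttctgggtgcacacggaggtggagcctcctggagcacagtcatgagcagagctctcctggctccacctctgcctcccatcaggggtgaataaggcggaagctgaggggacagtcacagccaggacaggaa
LINC00294-201 (chr11:33075900-33076199, plus strand): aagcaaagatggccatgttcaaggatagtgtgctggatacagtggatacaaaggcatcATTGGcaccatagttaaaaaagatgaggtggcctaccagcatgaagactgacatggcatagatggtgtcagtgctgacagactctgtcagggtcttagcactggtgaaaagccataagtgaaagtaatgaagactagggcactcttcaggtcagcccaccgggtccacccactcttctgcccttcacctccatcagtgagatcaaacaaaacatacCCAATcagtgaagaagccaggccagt
LINC01193-201 (chr15:20940188-20940487, plus strand): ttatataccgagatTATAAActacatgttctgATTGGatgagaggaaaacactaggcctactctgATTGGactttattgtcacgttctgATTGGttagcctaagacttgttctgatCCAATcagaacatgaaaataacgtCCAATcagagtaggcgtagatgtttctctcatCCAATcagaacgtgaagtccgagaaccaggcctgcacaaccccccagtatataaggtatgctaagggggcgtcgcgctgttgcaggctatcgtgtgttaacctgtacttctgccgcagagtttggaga
LINC00973-201 (chr3:98980805-98981104, plus strand): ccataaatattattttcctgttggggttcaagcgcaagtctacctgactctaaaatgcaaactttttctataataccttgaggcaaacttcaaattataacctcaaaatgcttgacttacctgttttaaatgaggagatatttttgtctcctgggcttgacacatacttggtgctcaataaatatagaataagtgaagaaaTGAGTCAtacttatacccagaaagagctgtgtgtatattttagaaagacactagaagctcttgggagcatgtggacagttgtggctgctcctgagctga
LINC01124-201 (chr2:170714518-170714817, minus strand): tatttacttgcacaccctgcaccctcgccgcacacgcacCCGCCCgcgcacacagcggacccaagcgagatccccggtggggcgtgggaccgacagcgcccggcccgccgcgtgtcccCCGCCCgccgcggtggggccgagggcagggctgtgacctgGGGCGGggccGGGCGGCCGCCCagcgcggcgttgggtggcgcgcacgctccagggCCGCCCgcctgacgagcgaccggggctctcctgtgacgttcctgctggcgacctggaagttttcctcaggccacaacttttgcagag
LINC01819-202 (chr2:43039494-43039793, minus strand): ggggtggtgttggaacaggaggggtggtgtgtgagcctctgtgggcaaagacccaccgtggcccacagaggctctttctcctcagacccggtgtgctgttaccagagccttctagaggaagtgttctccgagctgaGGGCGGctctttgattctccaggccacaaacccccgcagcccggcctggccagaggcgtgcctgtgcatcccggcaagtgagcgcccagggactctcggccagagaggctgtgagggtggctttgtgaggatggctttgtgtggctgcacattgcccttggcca
The first 4 belong to transcripts higher in A549 and the other 2 to transcripts higher in HBE. The LINC02212 window holds none of the 5 motifs, that of LINC01193 holds 6 CCAAT motifs and 1 TATA box, that of LINC00973 holds 1 AP-1 motif, and that of LINC01124 holds 6 GC boxes.

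Of the 67 LINC-named transcripts, 27 (40.3%) were higher and 40 (59.7%) lower in A549 at an adjusted p under 0.05. The same was found for 47.6% and 52.3% of all 1437 transcripts, and 99.9% passed in either direction, in a table that the authors had selected on this contrast. The call itself says nothing particular about the members, and their sizes and levels are described instead. Adjusted p-values of the members ranged from 2.14e-08 to 0.00412 (edgeR quasi-likelihood with Benjamini-Hochberg adjustment over all 1437). The median log2 fold change of A549 over HBE was -3.78 over the members and -2.00 over all transcripts tested. With transcripts without a count in one line at their bound it was -3.47 and -2.00. Among transcripts higher in A549 the median was 6.6 for members and 6.2 for all, and among lower ones -6.5 and -6.4. The pooled medians thus depend on the split of directions. In bulk RNA, fewer cells making a transcript and less of it per cell cannot be told apart. The CPM of the lines did not overlap for 65 members (97%), against 99.2% of all transcripts.

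Most members were read in one line and not in the other. In A549, 22 of the 27 higher transcripts had no count in any HBE sample, and in HBE 22 of the 40 higher transcripts had none in any A549 sample. Thus 32.8% of the members had no count in HBE and 32.8% none in A549, against 28.6% and 27.7% of all transcripts. A count of 0 over 3 samples allows up to 3 counts, and the bounds below are set against that floor, which covers counting error only. Where the lower line had 1 to 3 counts in all, the ratio is given with its exact interval, for counting error too. Bounds were 6.52-fold to 205-fold (median 14.4) for those without a count in HBE and 10.4-fold to 169-fold (median 24.5) for those without a count in A549. Each is set against 3 samples: without HBE replicate 1 the A549 bounds were 0.643 times, and without A549 replicate 3 the HBE bounds 0.659 times, their value. Folds and ratios of transcripts whose lower line had counts, but none in the sample left out, moved by the factor of that sample. Only 5 members had a count in all 6 samples: LINC00294-201, LINC00346-201, LINC00963-209, LINC01124-201 and LINC01278-205.

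**Figure D1:**
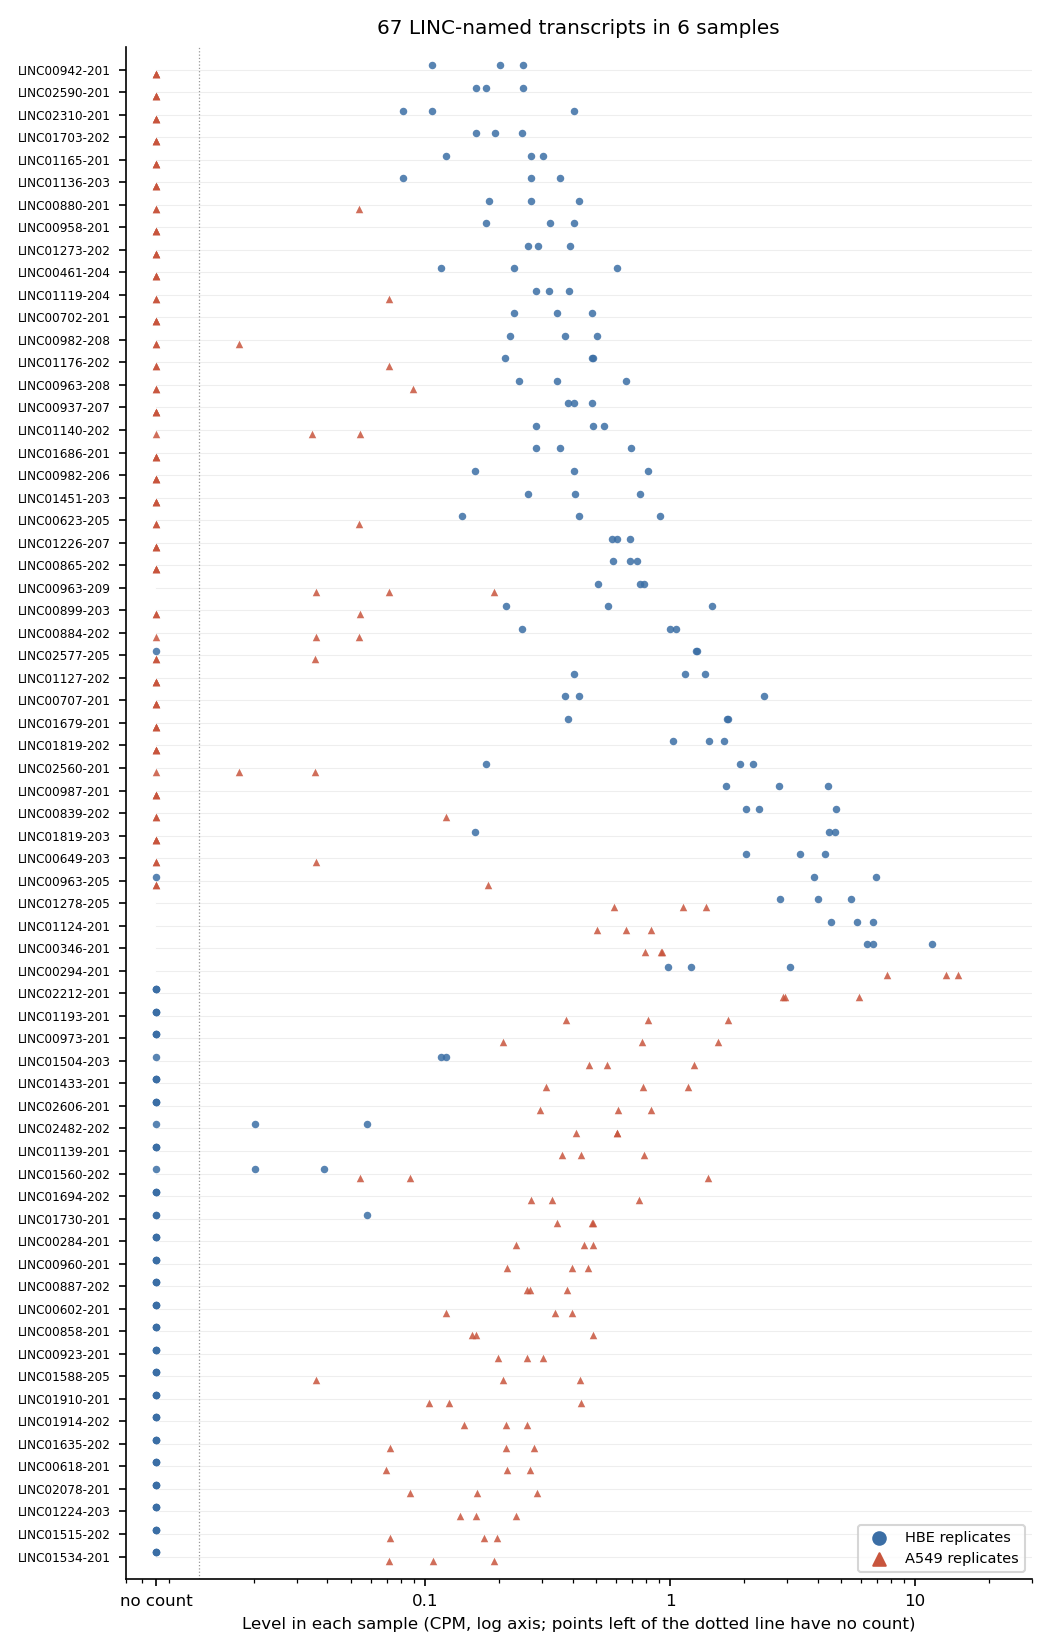
Level of each of the 67 LINC-named transcripts in the 3 HBE samples (circles) and the 3 A549 samples (triangles) in CPM on a log axis; points left of the dotted line have no count. Transcripts higher in HBE are in the upper part and those higher in A549 in the lower part, and 22 in each part have no count in any sample of the other line.

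Levels were low. Per length, 51 of the 67 members (76.1%) stayed under a mean of 1 FPKM in either line, against 75.7% of all transcripts. In the line where they were higher, members had a median of 0.292 FPKM, against 0.550 for the other 621 annotated transcripts. A mean of at least 1 FPKM was reached by 5 members in A549 and 11 in HBE. In counts, 41 members (61.2%) averaged at least 20 counts in the higher line, against 62.4% of all transcripts, so 26 rest on fewer. The members were spliced more often than the other annotated transcripts: 10 of 67 (14.9%) had 1 exon, against 175 of 621 (28.2%), and their median length was 2036 bases against 1529. These shares were not tested, and transcripts of a gene are not independent.

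The most abundant member in A549 was LINC00294-201 (ENST00000631190, chr11:33076149-33079454, plus strand, GRCh38), a single exon of 3306 bases. Its counts were 55, 63 and 153 in HBE replicates 1 to 3 and 748, 832 and 443 in A549 replicates 1 to 3. Every A549 sample stood above every HBE sample, with HBE replicate 3 the highest of its line and A549 replicate 3 the lowest of its own. Its level was 0.530 ± 0.350 FPKM in HBE and 3.63 ± 1.16 FPKM in A549 (SD, n = 3 each). The fold was 6.95 higher in A549, with a log2 fold change of 2.77 (SE 0.57, adjusted p = 7.0e-05 in edgeR), and 11-fold without HBE replicate 3. With DESeq2 size factors over the table the log2 fold change was 4.25 (adjusted p = 8.55e-06 in edgeR). LINC00294-201 alone gave 38.6%, 49.6% and 35.3% of the CPM of all members in the A549 samples, against 2.14% to 5.29% in HBE. Without it the members summed to 14.1 to 21.2 CPM in A549 and 44.0 to 55.6 CPM in HBE. It lies opposite exons of CSTF3, which encodes a cleavage stimulation factor subunit, and no source used here gives whether counting used the strand. LINC00294-201 also overlaps the gene body of TCP11L1 on the same strand, though none of its exons. Of its sequence, 19.99% recurs in other genes, in PIGCP1 above all. Reads of these genes may not be told apart from its own, so its counts are uncertain.

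LINC02212-201 (ENST00000515243, chr5:10493527-10502728, minus strand, 3 exons) had the largest bound in A549. Without a count in HBE, it had 332, 163 and 167 in the A549 samples, or 1.84 ± 0.815 FPKM (SD, n = 3), and was at least 205-fold higher (adjusted p = 2.14e-08 in edgeR). A549 replicate 1 held 50.2% of its counts, and the other A549 samples were alike. The start window above matches the annotated start of this transcript, the 1 transcript of its gene in GENCODE.

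Other members high by CPM in A549 had no HBE count. LINC00973-201, a transcript described in tumour cells exposed to anticancer drugs, had no HBE count and 43, 87 and 12 in A549, at least 44.1-fold higher, or 25.4-fold without A549 replicate 2. LINC01433-201, reported to bind the Hippo effector YAP in gastric cancer, had no HBE count and 66, 43 and 18 in A549, at least 39.4-fold higher. LINC01193-201, on chromosome 15, had no HBE count and 21, 45 and 99 in A549, at least 51.2-fold higher, or 31.1-fold without A549 replicate 3. The highest A549 sample was replicate 2 for LINC00973-201, replicate 1 for LINC01433-201 and replicate 3 for LINC01193-201, so no single library carried all 3. LINC02606-201 had 47, 34 and 17 counts in A549 and none in HBE, at least 30.4-fold higher. LINC01139-201, also called LINK-A and described in triple-negative breast cancer signalling, had 44, 20 and 25 counts in A549 and none in HBE, at least 27.6-fold higher.

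A pair of short transcripts had HBE counts as well. LINC02482-202 (422 bases) had HBE counts of 0, 3 and 1 against 34, 23 and 35 in A549, a fold of 21.4, or a ratio of 57.5 (exact 95% interval 10.1 to 2293) without HBE replicate 2. LINC01504-203 (671 bases) had HBE counts of 0, 6 and 6 against 70, 26 and 32 in A549, a fold of 9.93. Their levels in A549 were 1.25 ± 0.264 FPKM and 1.12 ± 0.634 FPKM (SD, n = 3). The lines did not overlap for either. The start of LINC02482-202 lies 139 bases from that of AC093323.1, which GENCODE types as protein-coding, on the opposite strand, and exons of AC093323.1 overlap it, so its counts are uncertain.

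**Figure D2:**
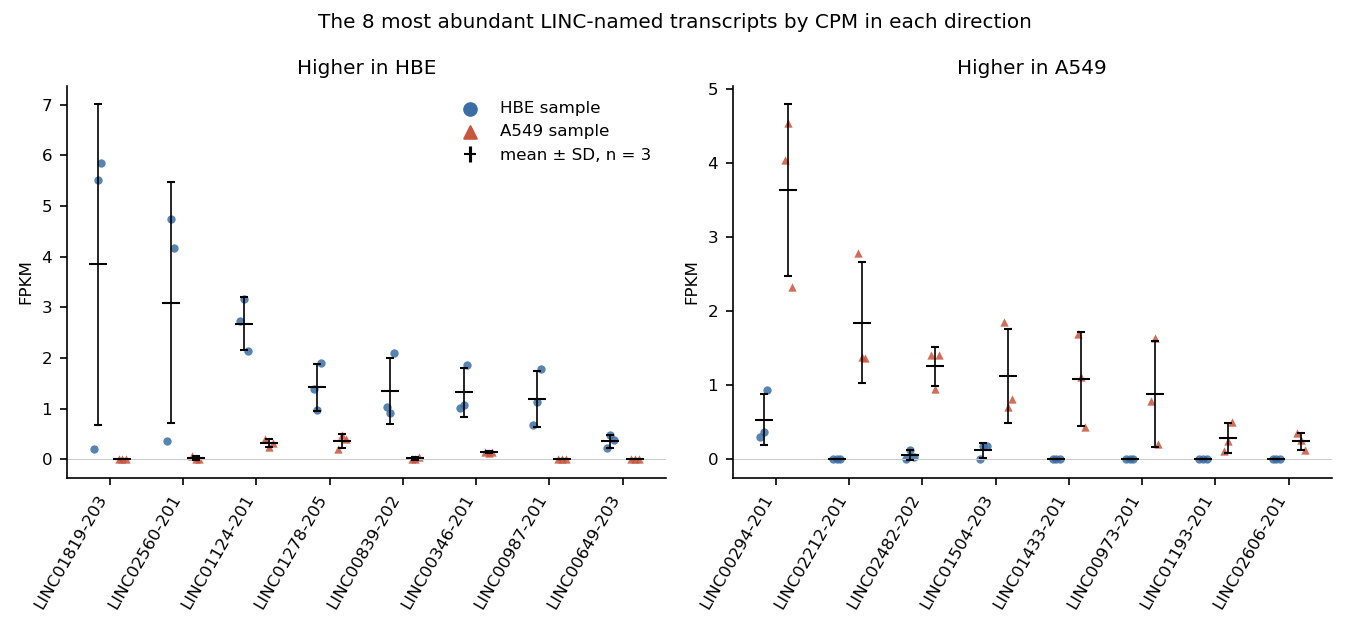
Level in FPKM of the 8 transcripts with the highest mean CPM in each direction, among those that have at least 20 counts on average in the higher line and lines that do not overlap; circles are HBE samples, triangles A549 samples, and black bars the mean ± SD (n = 3). LINC01819-203 and LINC02560-201 each have 1 low and 2 high HBE samples, and LINC00294-201 is the highest in A549 at 3.63 FPKM.

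In HBE the member with the highest CPM was LINC00346-201 (ENST00000538077, chr13:110863987-110870251, minus strand), a single exon of 6265 bases that RefSeq now names PRECSIT, for a p53-regulated STAT3-activating transcript of squamous carcinoma. It had 357, 350 and 579 counts in HBE replicates 1 to 3 and 52, 44 and 53 in A549. The A549 samples were close together and all far below the HBE samples. Its level was 1.32 ± 0.477 FPKM in HBE and 0.138 ± 0.0124 FPKM in A549 (SD, n = 3 each). The log2 fold change was -3.23 (SE 0.56, adjusted p = 2.13e-05 in edgeR). With DESeq2 size factors over the table it was -1.81 (adjusted p = 0.00219 in edgeR). LINC00346-201 gave at least 11.9% of the CPM of all members in each HBE sample.

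LINC01124-201 (ENST00000409786, chr2:170712451-170714567, minus strand), 1 exon, starts 784 bases from SP5, a Wnt-responsive transcription factor gene on the opposite strand. It had HBE counts of 325, 348 and 223 against 47, 28 and 38 in A549. The lowest HBE sample was still far above the highest A549 sample. Levels were 2.67 ± 0.522 FPKM in HBE and 0.311 ± 0.0794 FPKM in A549 (SD, n = 3 each). The log2 fold change was -3.08 (SE 0.58, adjusted p = 4.83e-05 in edgeR). SP5 itself was not analysed here.

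LINC01278-205, on chromosome X, was the member with the smallest difference. It had HBE counts of 226, 146 and 271 against 33, 78 and 65 in A549, a 3.92-fold lower level in A549. Its log2 fold change was -1.98 (SE 0.58, adjusted p = 0.00233 in edgeR), and the lines did not overlap. DESeq2 size factors over the table raised log2 fold changes by a median of 0.858 over all transcripts, many of them without a count in one line. LINC00294-201 and LINC00346-201, with counts in all 6 samples, rose by more, as given above. With these factors LINC01278-205 was at -0.55, with an adjusted p of 0.338 in edgeR. The call of LINC01278-205 thus depended on the scaling, as did the sizes of these folds.

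Other abundant HBE members were nearly or wholly without A549 counts. LINC00649-203 had HBE counts of 115, 223 and 167 against 0, 2 and 0 in A549, a ratio of 271 (exact 95% interval 74.7 to 2246), and exons of AP000311.1 lie opposite it. Without A549 replicate 2, which held both counts, it was at least 121.5-fold. LINC00839-202, described in breast cancer, had HBE counts of 130, 106 and 234 against 0, 0 and 7 in A549, a fold of 72.1, or at least 111-fold without A549 replicate 3. In both, the A549 counts came from 1 sample. LINC00987-201 had HBE counts of 95, 145 and 217 and no A549 count, at least 164-fold lower there, and 39.2% of its sequence recurs in other genes, in A2MP1, a pseudogene, above all. LINC01679-201, on chromosome 21, had HBE counts of 96, 89 and 19 and no A549 count, at least 73-fold lower. LINC02560-201, a single exon of 459 bases, had HBE counts of 10, 113 and 95 against 2, 0 and 1 in A549, a ratio of 78.1 (exact 95% interval 26.4 to 381), or 157 (27.8 to 6215) without A549 replicate 1. HBE replicate 1 was low for LINC02560-201 and replicate 3 for LINC01679-201, so the lowest HBE sample was not the same for both.

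Members with fewer counts followed, and those given here were chosen after their values were seen. In A549, LINC01694-202 had 42, 15 and 19 counts, LINC00284-201 (NRAD1 in RefSeq, described in breast cancer cells with high aldehyde dehydrogenase) 25, 13 and 28, and LINC00923-201 17, 11 and 15. None of these 3 had an HBE count, and they were at least 23.6-fold, 20.5-fold and 13.3-fold higher in A549. In HBE, LINC01127-202 had 78, 21 and 57 counts, LINC00865-202 33, 38 and 34, and LINC01226-207 34, 30 and 34. None of these 3 had an A549 count, for bounds of 55.9-fold, 37.6-fold and 35.1-fold. For LINC00865-202 and LINC01226-207 the HBE samples were close together, and exons of TINAGL1 overlap the latter on the same strand. Exons of AL512506.3, which GENCODE types as protein-coding, overlap LINC00284-201 on the same strand. Of the sequence of LINC00865-202, 40.33% recurs in other genes, in MARK2P16 above all. The counts of these transcripts are therefore uncertain. LINC00899-203 was uneven, with 12, 29 and 73 HBE counts against 0, 3 and 0 in A549, a ratio of 40.8 (exact 95% interval 13.6 to 201), or 21.4 (6.82 to 108) without HBE replicate 3.

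For 3 LINC genes more than 1 transcript was in the table, and all of these 7 transcripts were lower in A549. LINC01819-202 and LINC01819-203 (chr2:43032501-43039547, minus strand) start within 6 bases of each other, share their first exon junction and part at the second. Below, lower case is the last 15 bases of one exon and capitals the first 15 of the next.
LINC01819-202: gacctcccctttcagTTCTGGAGGCCAGAA
LINC01819-203: gacctcccctttcagGTCTTGCTTCCCCTC
LINC01819-202 had 81, 86 and 51 counts in HBE replicates 1 to 3, and LINC01819-203 had 9, 230 and 232. Neither had a count in A549, so they were at least 78.1-fold and 169-fold lower there, the latter at least 257-fold without HBE replicate 1. By FPKM, LINC01819-203 made up 9.64%, 72.4% and 81.7% of the pair in HBE replicates 1 to 3, so replicate 1 stood apart in isoform share, while its LINC01819-202 count lay between those of the other HBE samples. LINC02590-201, which RefSeq files under LINC01819, lies 1646 bases upstream of LINC01819-203 on the same strand and had HBE counts of 10, 13 and 8 and no A549 count.

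LINC00963 (chromosome 9, plus strand), described in the progression of prostate cancer to castration resistance, had 3 of its 20 GENCODE transcripts in the table. LINC00963-205 and LINC00963-208 join the same donor to acceptors 3 bases apart, with lower case and capitals as above.
LINC00963-205: aagcccatggggcagCAGGGCCCAGGACAC
LINC00963-208: aagcccatggggcagGGCCCAGGACACAGT
LINC00963-205 had HBE counts of 391, 201 and 0 against 0, 10 and 0 in A549, and the ranges of the lines overlapped. Its fold of 63.6 was 33.6 without HBE replicate 1 and at least 142-fold without A549 replicate 2. LINC00963-208 had HBE counts of 37, 18 and 12 against 5, 0 and 0 in A549, and LINC00963-209 had 44, 39 and 25 in HBE and 4, 2 and 11 in A549. The former was 14.4-fold lower in A549 and the latter 6.82-fold, or 12.7-fold without A549 replicate 3. The HBE sample without LINC00963-205 still had counts of the other 2 transcripts. The calls of LINC00963-205 and LINC00963-209 were lost under several settings: with the DESeq2 Wald test their adjusted p was 0.216 and 0.0667. Summed over the 3 transcripts the gene had 8.40, 4.98 and 0.749 CPM in HBE and 0.161 to 0.216 CPM in A549.

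The third such gene, LINC00982, is named PRDM16-DT in RefSeq for its position beside PRDM16, a transcription factor gene of brown fat and blood stem cells. LINC00982-206 had HBE counts of 9, 42 and 20 and no A549 count, at least 25.4-fold lower there, or 15.5-fold without HBE replicate 2. LINC00982-208 had HBE counts of 21, 26 and 11 against 0, 0 and 1 in A549, a ratio of 62.3 (exact 95% interval 10.7 to 2502), or at least 13.7-fold without A549 replicate 3. Their shares of the pair varied between HBE samples, with LINC00982-206 at 21.6% to 56.0% of the FPKM.

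**Figure D3:**
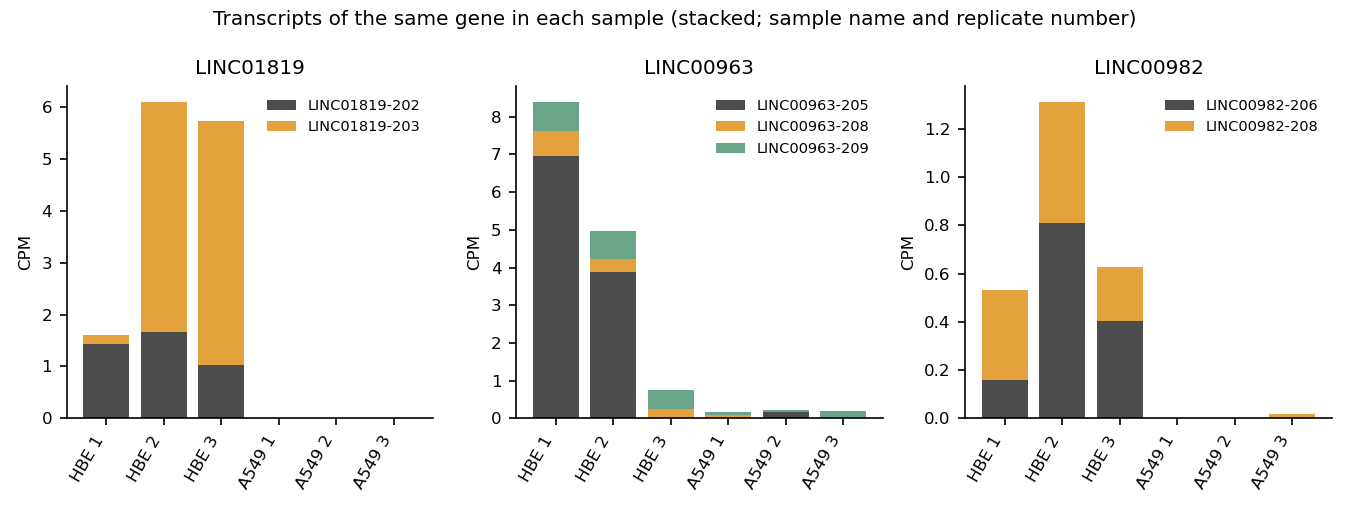
CPM per sample of the transcripts of LINC01819, LINC00963 and LINC00982 that are in the table, stacked by transcript (each panel has its own scale). HBE replicate 1 holds little LINC01819-203 and HBE replicate 3 no LINC00963-205, while the other transcripts of both genes are present there.

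Among LINC genes described in lung cancer, 8 of a list of 56 were members, with 10 transcripts. Of these, 2 were higher in A549 and 8 lower, 3 of the latter from LINC00963 alone. Beside this, 40.3% of all members and 47.6% of all transcripts were higher. LINC genes left out of the members could not enter this split, which was not tested. The higher ones were LINC00973-201 and LINC00858-201, which had no HBE count and 9, 27 and 9 in A549, at least 14.0-fold higher, or 8.31-fold without A549 replicate 2. Of the lower ones, LINC00346-201 and the 3 LINC00963 transcripts are given above, and LINC00461-204, also on this list, is given with the neural genes. LINC00707-201, described as raised in lung adenocarcinoma and also on the list of squamous and basal epithelial genes, had HBE counts of 21, 125 and 21 and no A549 count. It was at least 59.8-fold lower in A549, or 22.4-fold without HBE replicate 2, which held 74.9% of its counts. LINC00958-201, also called BLACAT2 and described in bladder cancer, had HBE counts of 10, 21 and 16 and no A549 count, and LINC00942-201, described in breast cancer, had 6, 13 and 10 and none. They were at least 16.8-fold and 10.4-fold lower in A549.

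LINC00461-204 was also the 1 member on the lists of neural genes and of small RNA hosts. It had HBE counts of 13, 6 and 30 and no A549 count, at least 17.5-fold lower (9.91-fold if HBE replicate 3 is left out). RefSeq names the gene MIR9-2HG, and both mature products of MIR9-2, a microRNA of neural progenitors, lie inside an exon of this transcript, shown here with the seed (bases 2 to 8) in capitals.
hsa-miR-9-5p: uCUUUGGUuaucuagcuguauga
hsa-miR-9-3p: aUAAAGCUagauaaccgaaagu
The mature microRNAs were not measured. No member was on the lists of pluripotency and germline, blood, or mesenchymal and endothelial LINC genes. None was on the list of 6 p53-linked LINC genes either, a list that does not hold LINC00346, which is itself described as p53-regulated.

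GENCODE release 29 types 54 of the 67 members as lincRNA, 6 as antisense, 6 as processed transcript and 1 as sense-overlapping, so the symbol does not always mean intergenic. Of the 54, 47 overlapped no protein-coding gene body. All 6 processed transcripts, 3 of them of LINC00963, were lower in A549, as were 5 of the 6 antisense ones, 2 of them of LINC00982. Beside these, 59.7% of all members and 52.3% of all transcripts in the deposited table were lower, and differences between types were not tested. Exons of a coding gene overlapped 4 members on the same strand and 6 on the opposite strand, and reads there may not be told apart from those of the coding gene. Over 50% of the sequence of 3 members recurs in other genes, and their counts are uncertain: LINC00623-205 (100%, in LINC00869 above all), LINC01226-207 (54.1%, TINAGL1) and LINC00880-201 (53.4%, LINC02029). Without the members that overlap coding exons or copies, 21 were higher and 34 lower in A549.

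The start of 10 members lay within 1000 bases of a coding start on the opposite strand, 5 of those higher and 5 of those lower in A549. Beside LINC01124-201 and LINC00982-206, the lower ones included LINC01136-203, 182 bases from BTG2, a p53-responsive antiproliferative gene, which had HBE counts of 20, 14 and 4 and no A549 count. LINC00884-202, 452 bases from ATP13A3, had HBE counts of 14, 52 and 52 against 3, 2 and 0 in A549, 25.3-fold lower, or a ratio of 42.4 (exact 95% interval 11.5 to 354) without A549 replicate 1. The higher ones included LINC01534-201, 202 bases from ZNF567, with no HBE count and 4, 6 and 11 in A549, and LINC00602-201, 363 bases from PDE10A, with none and 19, 22 and 7. Values were known when these 4 were named. On the opposite strand, exons of ATP13A3 overlap LINC00884-202 and exons of PDE10A overlap LINC00602-201. Of the sequence of LINC00602-201, 25.57% recurs in other genes, in PDE10A above all. The counts of LINC00884-202 and LINC00602-201 are therefore uncertain. The median distance to the nearest coding start was 38.5 kb for members higher in A549 and 36.6 kb for those higher in HBE.

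Beside 40 lower and 27 higher members in all, chromosome 1 held 8 lower and 3 higher, chromosome 2 held 6 and 1, chromosome 10 held 5 and 2, chromosome 9 held 4 and 1 and chromosome 12 held 3 and 0. Higher members outnumbered lower ones on chromosome 3 (3 and 2), on chromosomes 14 and 19 and 20 (2 and 1 each), on chromosome 15 (2 and 0), and on chromosomes 4, 6, 17 and 18, with 1 member each. Within 1 Mb of each other, LINC01730-201 and LINC01433-201 on chromosome 20, 380631 bases apart, were both higher in A549. LINC00937-207 and LINC00987-201 on chromosome 12, 843200 bases apart, were both higher in HBE, as were LINC01819 and LINC02590 above. LINC00887-202 and LINC00884-202 on chromosome 3, 174654 bases apart, went in opposite directions: LINC00887-202 had no HBE count and 15, 21 and 15 in A549. Neighbours on a chromosome are not independent, differences between chromosomes were not tested, and shares per chromosome over all transcripts were not computed.

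A RefSeq start window was found for 54 members, and for 27 of them its start lay within 50 bases of the start of the counted transcript. LINC01819-202 and LINC01819-203 share a window, which leaves 26 distinct ones. The G + C share of these had a median of 48.0% in the 13 of members higher in A549 and 61.3% in the 13 of members higher in HBE, against 58.7% over 35116 RefSeq windows. GC boxes were in 3 of 13 and 6 of 13 windows, against 45.0% of all windows. CCAAT was in 7 of 13 in both groups (34.6% of all), TATAAA in 3 of 13 and 1 of 13 (11.5%), TGANTCA in 2 of 13 and 0 of 13 (7.71%) and TGACGTCA in 0 of both (1.85%). None of the 5 motifs contains another, and a match describes letters, not a bound site.

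**Figure D4:**
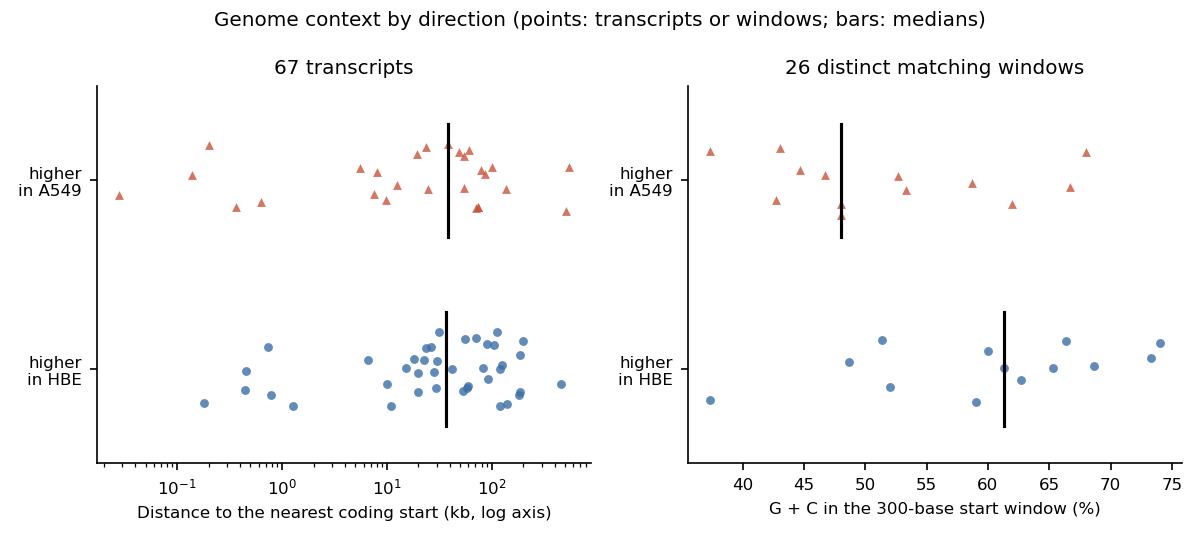
Left: distance in kb, on a log axis, from the start of each of the 67 transcripts to the nearest start of a protein-coding transcript, by direction. Right: G + C share of the 300-base start window for the 26 distinct matching windows; bars are medians, at 48.0% for members higher in A549 and 61.3% for those higher in HBE.

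Several members rested on 1 library. In 10 members over 60% of the counts of the higher line came from 1 sample. The most uneven was LINC01560-202, on chromosome X and named after its values were seen, with HBE counts of 0, 2 and 1 against 80, 3 and 5 in A549. Its ratio of 27.3 (exact 95% interval 9.04 to 135) fell to 3.71 (0.891 to 21.7) without A549 replicate 1, where the adjusted p in edgeR was 0.113. LINC02577-205 had HBE counts of 0, 67 and 63 against 2, 0 and 0 in A549, an overlap of the ranges, with a ratio of 69.8 (exact 95% interval 18.9 to 583). It was at least 31.1-fold without A549 replicate 1 and 109 (29.5 to 906) without HBE replicate 1, and with limma-voom its adjusted p was 0.0816.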

How the data were processed

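The authors deposited 1 table of 1437 selected lncRNA transcripts. The submitters' processing notes list HISAT2, StringTie, DESeq2 and GRCh38, with no version. The table gives per transcript and sample the authors' estimated counts (whole numbers) and FPKM, and a log2 fold change and p-value by the authors. In the authors' deposited table p-values reached 0.00997 and no log2 fold change was under 1.25 in size. No source used here gives whether counting used the strand.

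Positions, exons and lengths came from GENCODE release 29 (GRCh38), where 66 of the 67 symbols are the same; LINC02606-201 is AL928921.2-201 there. Library sizes were recovered from the deposited counts, since FPKM multiplied by length and library size and rounded up gave them to within 1 count in 99.8% of cases. Counts were tested over all 1437 transcripts with edgeR 4.0.16 in R 4.3.3 (quasi-likelihood, Benjamini-Hochberg, threshold 0.05), with these library sizes as the only scaling and no filter on low counts. The SE is the log2 fold change divided by the square root of F. Against a line without counts, folds are lower bounds set by 3 counts over its samples, and against 1 to 3 counts the ratio has an exact binomial 95% interval, both for counting error only. Since the authors selected the table on the same samples, no test here is independent evidence of a difference. Near-identical sequence in other genes was found by BLAST+ 2.17.0 (97% identity). Alternatives were DESeq2 1.42.0, limma 3.58.1, other scalings, a filter, log2(FPKM + 0.1) and log2(FPKM + 0.01), a replicate block and leaving out each sample.

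The members and lists were chosen with earlier results of these data known. Named transcripts were, per direction, the 8 most abundant by CPM and the 6 largest folds with at least 20 counts on average in the higher line and no overlap, all transcripts of genes with several in the table, those with overlapping lines, and up to 4 per list. Those named as chosen later, and LINC00858-201, LINC00958-201, LINC02590-201, LINC00887-202, LINC00937-207, LINC01730-201, LINC00623-205 and LINC00880-201, fall outside this rule.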

Additional observations from a re-analysis of the deposited data

How the results depend on the processing

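No member changed direction under any of the 15 other settings listed above. A filter of 10 counts in 3 samples left 15 members higher and 28 lower in A549, because 43 of the 67 then entered the fit. Otherwise 25 to 27 were called higher and 37 to 40 lower. Leaving out 1 sample gave 26 to 27 higher and 40 lower. Chosen after seeing the data, 1 transcript for each gene gave 27 higher and 36 lower, and without the members whose lines overlap 27 and 38. Of 415 values of the 28 transcripts named by rule under these settings, 404 kept their call and 11 lost it, those of LINC00963-205, LINC00963-209, LINC01278-205 and LINC02577-205. Over all members 6 lost a call at least once, the others being LINC01560-202 and LINC02078-201 (adjusted p = 0.0766 in limma on log2(FPKM + 0.1)). Scalings taken from the table raised log2 fold changes by a median of 0.26 (upper-quartile factors) to 0.858 (DESeq2 size factors in edgeR). With the latter 41.5% of called members were higher in A549, against 40.3%. Over all called transcripts the share higher in A549 moved more, to 52.65% from 47.67%. The DESeq2 Wald test, which changes scaling and model together, raised log2 fold changes by a median of 1.40. For 2 members with counts in all 6 samples it was close to DESeq2 size factors in edgeR. LINC00294-201 had 4.255 and 4.252, and LINC00346-201 had -1.808 and -1.806.

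With the replicate number as a block, 26 members were higher and 39 lower; LINC00963-209 (adjusted p = 0.0585 in edgeR) and LINC01560-202 (0.137) lost their calls. Deviations of same-numbered samples correlated at -0.0416 to 0.0347 and those of differently numbered samples at -0.0609 to 0.0694. With no count in one line for 809 of the 1437 transcripts, these correlations could not decide whether the numbers pair the samples.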
